A study of Mus musculus with 9 samples.

Results

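Mouse epiblast stem cells carrying a dsRed2 fluorescent reporter were flow sorted into reporter positive and reporter negative cells, and the comparison of these 6 arrays, 3 per sort, is described here out of 9 arrays in all. The members were taken by their labels: every array labelled as sorted dsRed2 positive and every array labelled as sorted dsRed2 negative, with arrays of the same replicate number treated as a pair. The other arrays, of CHIRON-treated cells, were left out of the normalisation, the filter and the fit. Both sorts came from untreated male cells of a 129 background, grown with activin A at 20 ng/ml and basic FGF at 10 ng/ml. The series text calls the replicates biological. The sources used here do not state what drives dsRed2, how the gates were set or whether the cells are 1 clone, and no dsRed2 probe was used.

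Epiblast stem cells are derived from the epiblast after implantation and keep a pluripotent state that depends on activin and FGF signals. In the embryo, epiblast cells enter the primitive streak under Wnt, Nodal and FGF signals, lose epithelial character there and become mesoderm and endoderm. Cultures of epiblast stem cells are known to hold some cells that express streak genes beside cells that do not. The title of the series concerns such a streak-like population and Wnt signalling, so the question of the comparison is how the reporter positive cells differ from the reporter negative cells. The labels do not say whether same-numbered arrays came from the same culture.

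Median signals of the 6 arrays lay between 95.1 and 103, and 36.7% to 38.5% of probes had a detection p-value below 0.05. Both sorts expressed the epiblast genes that their label calls for. All 8 markers of post-implantation epiblast (Pou5f1, Nanog, Sox2, Fgf5, Otx2, Dnmt3b, Pou3f1 and Cldn6) were detected on all 6 arrays. Of 8 markers of naive embryonic stem cells 2, Esrrb and Tfcp2l1, were detected on all 6, while Nr0b1 and Dppa3 were detected on 0. The neural markers Sox1, Pax6 and Six3 were detected on 0 arrays. Of 10 markers of feeder fibroblasts 5 (Col1a2, Col3a1, Postn, Lum and Dcn) were detected on 0, while Thy1, Bgn and Acta2 were detected on all 6 and Col1a1 on 5. Of 8 visceral and parietal endoderm markers 4 (Afp, Ttr, Apoa1 and Cubn) were detected on 0, while Dab2 and Sox7 were detected on all 6. Values below are normalised log2 signals, and differences are positive minus negative on the log2 scale as means of 3 pairs ± the standard error of the model (SE, n = 3 pairs). The number of arrays limits the precision.

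Reporter positive and negative cells were close to each other. The median absolute difference over 11953 genes was 0.09, and 6 genes differed by at least 1. By limma's paired model with Benjamini-Hochberg adjustment over all genes, 3 genes (0.0251%) fell in positive cells and 0 rose; at an unadjusted p below 0.05, 1151 genes (9.63%) differed, 651 (5.45%) lower and 500 (4.18%) higher. The 3 were Tmem223, Prxl2a and Eif2s3y. Several genes of the streak were higher by mean, and several matrix, keratin and BMP genes lower, in positive cells, and none of these passed the test over all genes. The replicates of a sort varied more than the sorts: the median SD among the 3 positive arrays was 0.16 and among the 3 negative arrays 0.17, and for 61.4% of genes the smaller of the gene's 2 SDs exceeded its difference between the sorts. The 3 pairs had few differences in common, with correlations of the pair differences across genes of 0.17 between pairs 1 and 2, 0.06 between pairs 1 and 3 and 0.24 between pairs 2 and 3 (genes are not independent replicates). At least 2-fold higher and lower levels were reached by 4 and 9 genes in pair 1, by 3 and 24 in pair 2 and by 8 and 6 in pair 3.

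**Figure D1:**
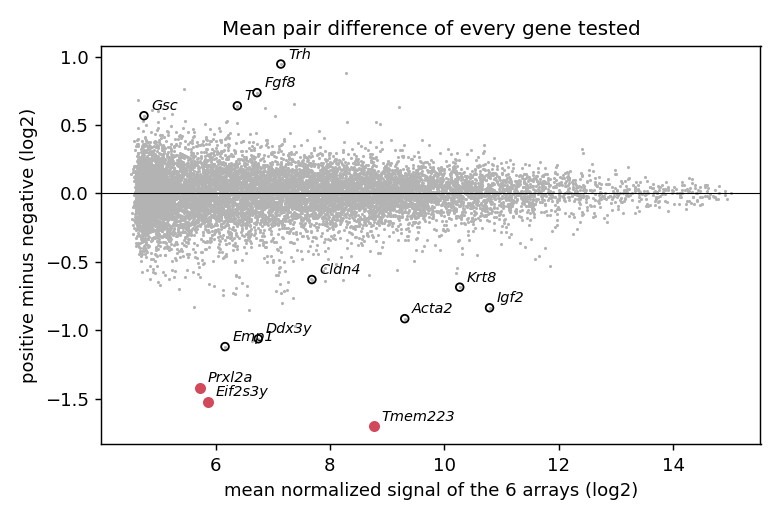
Each grey point is 1 of the 11953 genes, with the mean normalised signal of the 6 arrays on the x axis (log2) and the mean of the 3 pair differences, positive minus negative, on the y axis (log2). Filled red points are the 3 genes with an adjusted p below 0.05, all lower in positive cells, and open circles are other genes named in the text, among them Trh at 0.95 and Igf2 at −0.84.

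Among the markers of the streak, T, which encodes the T-box factor brachyury of nascent mesoderm, was at 5.69, 7.25 and 7.17 on positive arrays 1, 2 and 3 and at 5.20, 6.98 and 6.0 on negative arrays 1, 2 and 3. The groups overlapped, since replicate 1 was low and replicate 2 high in both sorts, but the positive array was higher in every pair. The difference was 0.64 ± 0.16 (adjusted p = 0.270), and it was 0.38 without pair 3. Fgf8, a secreted growth factor that streak cells need to leave the streak, was at 6.08, 7.03 and 8.17 on the positive and at 5.80, 6.35 and 6.91 on the negative arrays. It was lowest in pair 1 and highest in pair 3 in both sorts, and the difference was 0.74 ± 0.17 (adjusted p = 0.243), or 0.48 without pair 3. Fgf8 passed the test with median scaling (adjusted p = 0.0413) and with a mean-variance trend (0.00784), and T with that trend (0.0232). Gsc, a homeobox gene of the anterior streak, was at 4.42, 5.44 and 5.24 against 4.21, 4.77 and 4.42. These values are close to background, with detection on 2 positive arrays and 1 negative array, and the difference of 0.57 ± 0.13 (adjusted p = 0.243) was 0.20 without background correction.

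Trh, which encodes the precursor of thyrotropin-releasing hormone and is expressed in the embryo around the anterior streak and node, had the largest positive difference of the 11953 genes, although it did not pass the test over all genes. Its level was 8.55, 7.50 and 6.79 on the positive arrays and 7.91, 6.44 and 5.66 on the negative arrays. The order over pairs was the reverse of that of Fgf8, with pair 1 highest and pair 3 lowest in both sorts, and the groups overlapped for that reason. Within pairs the differences were 0.64, 1.06 and 1.13, with a mean of 0.95 ± 0.12 (adjusted p = 0.0756). On the authors' deposited values, which are scaled differently, the same paired model gave 0.60 (adjusted p = 0.00293).

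Of 17 primitive streak genes tested of 24 listed, 6 were higher in 3 of 3 pairs and 0 were lower in 3 of 3, where 15.9% of all genes were higher and 15.3% lower in every pair; the median of the list was 0.02, against 0.01 over all genes. The 6 were T, Fgf8, Gsc, Lhx1, Fst and Sp5, and 0 passed over all genes. Lhx1, a LIM homeobox gene of the node and anterior streak, differed by 0.36 ± 0.13, or by 0.19 without pair 2. It was near background, with detection on 2 positive and 2 negative arrays. In pair 1 its values of 4.30 and 4.25 lay below the lowest detected signals of 4.69 and 4.65. Fst, which encodes the activin-binding protein follistatin, differed by 0.38 ± 0.10, and Sp5, a zinc finger gene induced directly by Wnt, by 0.25 ± 0.10. The ligand genes Nodal, Fgf17 and Wnt3 and the Nodal co-receptor gene Tdgf1 differed by 0.02, 0.02, −0.13 and −0.14, with mixed signs in the pairs. Mixl1, Eomes, Mesp1, Mesp2, Evx1 and Wnt3a were measured but did not pass the detection filter; the brighter Eomes probe was detected on 2 positive arrays and 0 negative arrays. The list therefore describes 17 genes that were bright enough, not all streak genes. Of 19 listed genes of the anterior streak, endoderm and axial mesoderm 9 were tested, Trh and Hhex (0.16 ± 0.10) were higher in every pair, and Sox17, Foxa2, Cer1 and Shh were among the 10 that did not pass the filter.

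**Figure D2:**
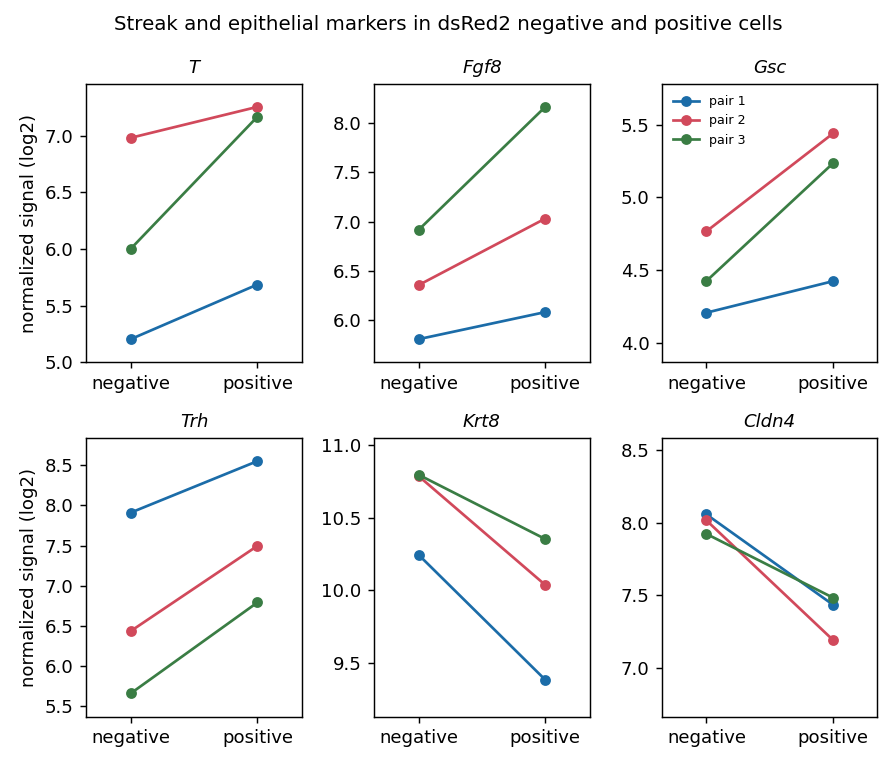
Normalised log2 signal (y axis) of 6 marker genes in dsRed2 negative and positive cells (x axis), with a line for each same-numbered pair. T, Fgf8, Gsc and Trh were higher in the positive array of every pair and Krt8 and Cldn4 lower, while the height of a pair varied by more than the sorts did for T, Fgf8 and Trh.

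The DNA before the start sites of the marker genes and of 2 of the called genes is shown to place the letters that T-cell factors, the DNA-binding partners of β-catenin in Wnt signalling, are known to recognise. The windows hold the 250 bases before the start of transcription, 5′ to 3′ on the gene's strand, from RefSeq on GRCm38.p6. Capitals mark matches on either strand to any of the 4 forms of the motif, which is CTTTG followed by 2 letters that are each A or T, or to their reverse complements. Windows are shown for T, Gsc, Trh, Krt8, Cldn4, Eif2s3y and Prxl2a, the last with 5 alternative starts of which the first listed is given, and those of Axin2 and Ddx3y were searched as well.
T, chr17:8434173-8434422, plus strand: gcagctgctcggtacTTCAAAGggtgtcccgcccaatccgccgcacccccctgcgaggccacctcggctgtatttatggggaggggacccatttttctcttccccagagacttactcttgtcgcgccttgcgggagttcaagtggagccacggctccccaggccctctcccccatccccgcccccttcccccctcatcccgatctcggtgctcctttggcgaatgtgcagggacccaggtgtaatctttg
Gsc, chr12:104473237-104473486, minus strand: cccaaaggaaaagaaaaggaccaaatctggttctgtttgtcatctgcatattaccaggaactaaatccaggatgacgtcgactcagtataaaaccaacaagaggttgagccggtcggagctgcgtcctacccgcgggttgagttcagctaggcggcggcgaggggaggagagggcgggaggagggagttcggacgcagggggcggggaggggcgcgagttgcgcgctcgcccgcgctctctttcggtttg
Trh, chr6:92244651-92244900, minus strand: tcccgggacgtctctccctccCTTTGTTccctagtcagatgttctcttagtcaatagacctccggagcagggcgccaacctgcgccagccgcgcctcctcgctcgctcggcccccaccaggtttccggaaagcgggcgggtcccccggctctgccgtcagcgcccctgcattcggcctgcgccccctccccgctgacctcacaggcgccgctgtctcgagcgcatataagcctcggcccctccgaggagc
Krt8, chr15:102004343-102004592, minus strand: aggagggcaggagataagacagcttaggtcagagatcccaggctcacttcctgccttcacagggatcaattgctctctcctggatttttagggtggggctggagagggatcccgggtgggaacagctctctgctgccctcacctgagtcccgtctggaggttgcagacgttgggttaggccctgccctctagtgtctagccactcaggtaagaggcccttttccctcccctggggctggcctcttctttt
Cldn4, chr5:134946935-134947184, minus strand: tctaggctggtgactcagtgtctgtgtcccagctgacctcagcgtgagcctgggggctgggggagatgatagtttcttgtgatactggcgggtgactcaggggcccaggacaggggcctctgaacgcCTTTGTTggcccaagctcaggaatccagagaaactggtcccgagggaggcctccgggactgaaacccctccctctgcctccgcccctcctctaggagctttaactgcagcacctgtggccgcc
Eif2s3y, chrY:1010345-1010594, plus strand: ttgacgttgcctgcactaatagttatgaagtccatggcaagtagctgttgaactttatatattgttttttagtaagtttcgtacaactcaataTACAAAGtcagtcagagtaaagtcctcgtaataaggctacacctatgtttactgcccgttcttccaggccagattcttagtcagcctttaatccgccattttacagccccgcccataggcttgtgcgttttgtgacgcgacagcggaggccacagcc
Prxl2a, chr14:41013834-41014083, minus strand: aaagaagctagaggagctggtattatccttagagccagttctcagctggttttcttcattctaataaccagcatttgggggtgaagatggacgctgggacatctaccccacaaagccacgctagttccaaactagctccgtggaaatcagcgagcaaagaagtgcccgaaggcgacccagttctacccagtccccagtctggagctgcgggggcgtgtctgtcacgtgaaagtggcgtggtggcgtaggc
A match was present once each before T, Trh, Cldn4 and Eif2s3y and was not found before Gsc, Axin2, Krt8, Ddx3y or Prxl2a. Genes on both sides of the sort thus held the letters. Of the first windows of 7983 tested genes, 10.0% held at least 1 match, as did 14.8% of all 32851 windows that RefSeq's table gave. A match is a string of letters in this window and was not tested as a binding site.

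Targets and feedback genes of Wnt/β-catenin signalling gave small values. Of 13 tested of 21 listed, 5 (T, Axin2, Sp5, Ccnd1 and Nkd2) were higher and 2 (Bmp4 and Tnfrsf19) lower in every pair. Of all genes 15.9% were higher and 15.3% lower in every pair. The median of the list was 0.09, and 0 were called. Axin2, a scaffold of the complex that degrades β-catenin and a feedback target of the pathway, was at 6.97, 6.59 and 6.70 on positive and at 6.56, 6.30 and 6.39 on negative arrays. The groups did not overlap, as for 3.64% of all genes in that direction, and the difference was 0.33 ± 0.10 (adjusted p = 0.314). Wls, which encodes the carrier that Wnt ligands need for secretion, was on the brightest of its 3 passing probes at 5.52, 5.91 and 5.86 against 6.10, 6.68 and 6.72, lower on every positive array than on any negative array (−0.74 ± 0.10, adjusted p = 0.0756). Lef1, Lgr5, Dkk1, Notum, Rnf43 and Znrf3 did not pass the detection filter.

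In FGF signalling the ligand genes Fgf8 and Fgf15 had higher and the receptor gene Fgfr2 lower means. Fgfr2 was at 6.16, 5.75 and 6.13 on positive and at 6.88, 6.76 and 6.48 on negative arrays, without overlap (−0.69 ± 0.13, adjusted p = 0.163). Fgf15 differed by 0.37 ± 0.10 and Fgfr1 by −0.18 ± 0.10. The ERK feedback genes Dusp6, Dusp4, Spred1 and Etv4 differed by 0.06, −0.03, −0.02 and −0.02, with mixed signs in the pairs. Of the 15 genes tested 3 were higher and 2 lower in every pair, where 15.9% and 15.3% of all genes were. In the Nodal and activin pathway, the ligand gene Gdf3 was at 8.88, 9.05 and 9.28 on positive and at 8.51, 8.49 and 8.65 on negative arrays. Every positive array exceeded every negative array, and the difference was 0.52 ± 0.10 (adjusted p = 0.174). Lefty1 and Lefty2, inhibitors of Nodal, differed by 0.03 and 0.10. In every pair 3 of 16 pathway genes were higher and 2 lower, against the same shares of all genes.

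Of the epithelial genes, Krt8, which encodes a keratin of simple epithelia, was at 9.38, 10.04 and 10.35 on positive arrays and at 10.25, 10.79 and 10.80 on negative arrays. The groups overlapped through positive array 3, and each positive array was below its partner (−0.68 ± 0.11, adjusted p = 0.120). Cldn4, a claudin of tight junctions, was at 7.43, 7.19 and 7.48 against 8.06, 8.02 and 7.92. It was the member of the list whose groups did not overlap, where 3.95% of all genes were lower without overlap (−0.63 ± 0.11, adjusted p = 0.128). Cldn4 passed the test on the authors' deposited values (adjusted p = 0.0196), without background correction (0.0239) and with a mean-variance trend (0.000952), and Krt8 on the deposited values (0.00680), without background correction (0.0110), with median scaling (0.0413) and with the trend (1.04e-05). These settings process the same arrays and are not separate support. Krt18, the keratin partner of Krt8, differed by −0.34 ± 0.13, most of it in pair 2 (−0.10, −0.70 and −0.20), and by −0.15 without that pair. Some other epithelial genes were near 0. Cdh1, which encodes E-cadherin, differed by −0.04, though by 0.28 on a dimmer second passing probe. The tight junction scaffold Tjp1 differed by 0.03, the splicing regulator Esrp1 by 0.05 and the epithelial transcription factor Grhl2 by −0.03. Crb3 differed by 0.23, Ovol2 by 0.19 and Grhl3 by −0.19. Of 23 tested, 1 was higher and 4 lower in every pair, against 15.9% and 15.3% of all genes, with a median of −0.03.

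The 3 genes that fell did so by amounts that were alike in all pairs. Tmem223, a gene on chromosome 19 for a transmembrane protein of mitochondria, was at 6.99, 7.54 and 9.22 on positive and at 8.81, 9.40 and 10.65 on negative arrays. Replicate 3 was highest and replicate 1 lowest in both sorts, so the groups overlapped, while the pair differences were −1.81, −1.86 and −1.43 (−1.70 ± 0.12, adjusted p = 0.00174). A second passing probe of Tmem223 differed by −1.53. Prxl2a, a gene on chromosome 14 for a peroxiredoxin-like protein, was at 5.08, 4.55 and 5.42 against 6.38, 6.06 and 6.87, without overlap (−1.42 ± 0.10, adjusted p = 0.00174). Its second probe did not pass the filter and was detected on 0 positive and 2 negative arrays.

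Eif2s3y, the Y-linked gene of a subunit of translation initiation factor 2, was at 4.61, 4.53 and 6.20 on positive arrays and at 5.92, 6.32 and 7.66 on negative arrays, and was detected on 1 and 3 of them. The pair differences were −1.31, −1.79 and −1.46 (−1.52 ± 0.12, adjusted p = 0.00242). Replicate 3 was highest in both sorts, as for Tmem223. Because the lower values of Prxl2a and Eif2s3y lie near background, their sizes depended on the background correction: on the authors' deposited values they were −0.61 and −0.69 (adjusted p = 0.00320 and 0.00742), against −1.43 for the brighter Tmem223. All 3 calls were lost in the model without pairs (adjusted p = 0.9999 each), and with no detection filter, where 28896 genes were tested (adjusted p = 0.175 for Tmem223, 0.113 for Prxl2a and 0.222 for Eif2s3y). Both models called 0 genes, with 356 and 2213 genes at an unadjusted p below 0.05.

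The Y chromosome gene Ddx3y, which encodes an RNA helicase, had a value in the same direction: 5.56, 5.87 and 7.22 on positive and 6.21, 7.12 and 8.50 on negative arrays (−1.06 ± 0.14, adjusted p = 0.0756). On the authors' deposited values the Ddx3y difference was −0.65 (adjusted p = 0.0247). Replicate 3 was again highest in both sorts. Uty, a Y-linked histone demethylase gene, was near background at 5.01, 4.70 and 4.75 against 4.48, 4.97 and 4.97, with no common direction (0.01 ± 0.16). Kdm5d, Sry, Usp9y, Zfy1 and Zfy2 did not pass the filter, so 3 of 8 Y-linked genes on the array were tested. The X-linked partner of Eif2s3y, Eif2s3x, was at 9.59, 9.50 and 9.45 against 9.55, 9.58 and 9.62 (−0.07 ± 0.10), and the spread of all 6 arrays was small. Ddx3x, the partner of Ddx3y, was lower on every positive array than on any negative array in the probe used (−0.45 ± 0.10, adjusted p = 0.243), but a second passing probe differed by 0.26. Among 8 such X-linked partners, 1 was higher and 2 were lower in every pair, against 15.9% and 15.3% of all genes, with a median of −0.06.

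**Figure D3:**
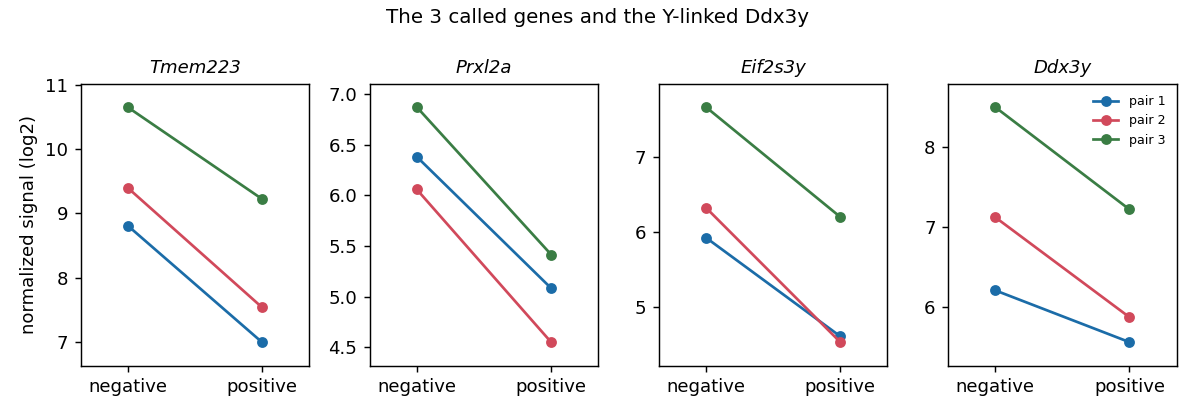
Normalised log2 signal (y axis) of the 3 genes with an adjusted p below 0.05, Tmem223, Prxl2a and Eif2s3y, and of Ddx3y, in dsRed2 negative and positive cells (x axis), with a line for each pair. All lines run downward, for Ddx3y with differences of −0.65, −1.25 and −1.28 in pairs 1, 2 and 3, and pair 3 is highest in all 4 panels.

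Genes of the extracellular matrix and of mesenchymal cells had lower means in positive cells for 19 of 21 tested of 24 listed. Of all 11953 genes 5781 had lower means. In every pair 9 were lower and 0 higher, against 15.3% and 15.9% of all genes, and the median was −0.22. Col4a1 and Col4a2, which encode the chains of basement membrane collagen, differed by −0.60 ± 0.10 and −0.65 ± 0.14, Tgfbi, a secreted matrix protein gene induced by TGF-β, by −0.72 ± 0.14 and Sparc, which encodes a collagen-binding glycoprotein, by −0.37 ± 0.10. Mmp2, a matrix protease gene, differed by −0.38 ± 0.11 and Vim, the intermediate filament gene vimentin, by −0.27 ± 0.10. None passed the test over all genes (adjusted p = 0.128 for Col4a1). The transcription factors of mesenchymal transition were closer to 0, with Snai1 at −0.19, Snai2 at −0.16, Zeb1 at −0.09 and Twist1 at 0.02. A second passing Tgfbi probe differed by −0.51 and a second Sparc probe by −0.31.

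Markers of fibroblasts and feeder cells were lower beside the matrix genes. Of 8 tested of 17 listed, 5 were lower (Bgn, Acta2, Col6a1, Col1a1 and Fbln2) and 1 was higher in every pair (Pdgfra, detected on 3 positive and 0 negative arrays, at least 1.06-fold), with a median of −0.41. Over all genes, 15.3% were lower and 15.9% higher in every pair. Acta2, smooth muscle actin, was at 8.67, 8.95 and 8.93 on positive and at 9.11, 10.53 and 9.66 on negative arrays. The positive arrays were alike and the negative arrays spread, so the difference of −0.92 ± 0.19 (adjusted p = 0.202) was −0.58 without pair 2. The other 3 Acta2 probes differed by −0.70, −0.62 and −0.90. Bgn, which encodes the proteoglycan biglycan, was at 6.29, 6.94 and 7.05 against 7.48, 7.79 and 7.42 (−0.80 ± 0.15, adjusted p = 0.154). The summed normalised signal of the 8 genes on the linear scale was 1103 to 1319 on positive arrays and 1511 to 2293 on negative arrays. These ranges did not overlap, but a linear sum weights bright genes such as Acta2, which had the largest difference of the list. Acta2 is also in the contractile list, and no sum was made without it, so the sum does not describe the list as a whole. Col1a2, Col3a1, Dcn, Lum and Postn were detected on 0 arrays, and Thy1 and Loxl1 differed by −0.01 and −0.09. Their part in the matrix values was not tested, and in bulk samples fewer cells of a type cannot be told apart from less RNA per cell.

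Visceral and parietal endoderm genes shared members with the matrix list. All 8 tested had lower means (median −0.17), as did 5781 of all 11953 genes. In every pair 3 of the 8 were lower, against 15.3% of all genes. These were Col4a2, Sparc and Dab2, an endocytic adaptor gene of extraembryonic endoderm (−0.36 ± 0.10, with −0.03 for a second passing probe). The summed signal of the 8 was 3192 to 3607 on positive and 3928 to 4371 on negative arrays. Such a sum weights bright genes, here Sparc of the matrix list, at 10.55 to 10.97 on positive and 11.03 to 11.40 on negative arrays. No sum was made without Sparc, so the sum does not describe endoderm genes as a whole. Afp, Ttr, Apoa1 and Cubn were detected on 0 arrays. Their part in the matrix values was not tested. The contractile list had a median of −0.07. Out of 15, 1 was higher and 4 were lower in every pair, against 15.9% and 15.3% of all genes. Its YAP targets Ccn2 and Ccn1 differed by −0.01 and −0.12.

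BMP genes were lower in part. Bmp4 was at 7.45, 7.72 and 7.63 on positive and at 7.86, 8.56 and 8.08 on negative arrays, and Bmp7 at 5.88, 5.80 and 6.47 against 6.68, 6.52 and 6.75. Both are ligand genes whose groups did not overlap, as for 3.95% of all genes in that direction, with differences of −0.56 ± 0.12 and −0.60 ± 0.12 (adjusted p = 0.191 for both). Id3, an inhibitor of differentiation induced by BMP, was at 4.72, 4.68 and 4.75 against 5.16, 5.33 and 5.26, near background and without overlap (−0.53 ± 0.10, adjusted p = 0.154). The related target Id1 differed by −0.01 and Id2 by 0.21, with mixed signs in the pairs, and Smad6, an inhibitor of BMP signalling, by 0.26 ± 0.11. A second passing Id2 probe differed by −0.15 and was lower in every pair, at 4.63, 5.69 and 4.74 against 4.93, 5.78 and 4.80. Of 8 tested of 15 listed, 5 were lower and 1 higher in every pair, against 15.3% and 15.9% of all genes, with a median of −0.24.

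Tfap2c, a transcription factor gene of trophoblast and germ cell precursors, was at 6.73, 6.61 and 7.05 on positive and at 7.30, 7.32 and 7.76 on negative arrays. No positive array reached the lowest negative array, the pair differences were −0.57, −0.71 and −0.70, and the mean was −0.66 ± 0.10 (adjusted p = 0.0836). A second passing probe differed by −0.58. The interferon-induced membrane protein genes Ifitm3 and Ifitm1, which mark early germ cells, differed by −0.45 ± 0.12 and −0.39 ± 0.12. The germ cell factors Prdm1, Prdm14, Nanos3 and Dppa3 did not pass the filter. Of 7 tested genes of this list 0 were higher and 4 lower in every pair, against 15.9% and 15.3% of all genes.

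On the probe used for each gene, 14 of 14 tested genes of the p53 response had mean differences below 0. Of all 11953 genes 5781 did. In every pair 9 of the 14 were lower (15.3% of all genes), and the median was −0.19. Other passing probes of Sesn1, Sesn2, Trp53inp1, Tnfrsf10b and Bbc3 included some above 0. Those of Mdm2, Ccng1 and Phlda3 were below 0. Cdkn1a, which encodes the cell cycle inhibitor p21, was at 10.07, 10.11 and 10.13 on positive and at 10.31, 10.60 and 10.58 on negative arrays. The groups did not overlap (−0.40 ± 0.10, adjusted p = 0.270), and the other 2 passing probes differed by −0.50 and −0.24. Gdf15, a stress-induced cytokine gene, differed by −0.50 ± 0.10, Mdm2, the ubiquitin ligase that degrades p53, by −0.28 ± 0.11, and the death receptor gene Fas by −0.70 ± 0.14. Fas was detected on 2 positive arrays and its other passing probe differed by −0.18. The summed signal of the list was 15444 to 17103 on positive and 18305 to 18797 on negative arrays. A linear sum weights bright genes, so this sum does not describe the list as a whole. At an unadjusted p below 0.05, 4 of the 14 were lower, against 5.45% of all genes, and 0 passed over all genes.

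**Figure D4:**
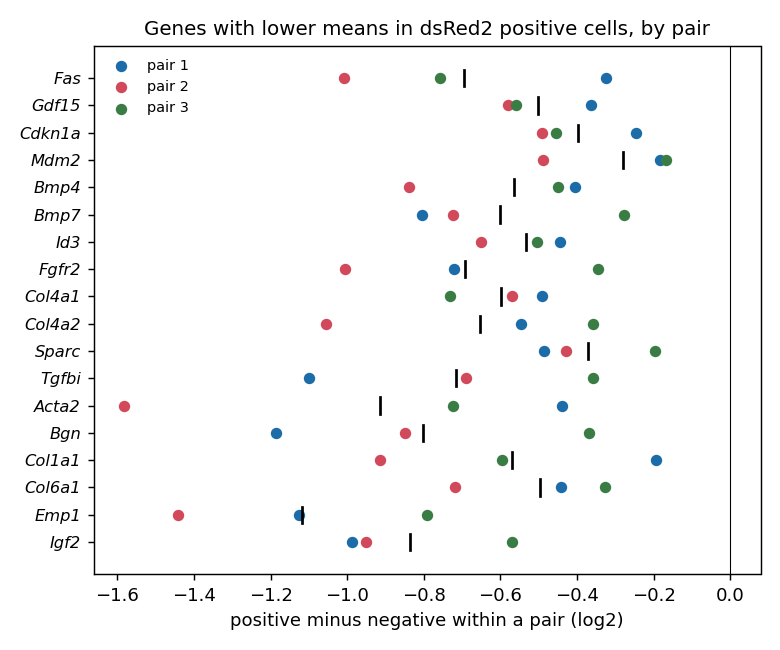
Differences within pair 1, 2 and 3 (coloured points) and their mean (black bar), positive minus negative on the log2 scale (x axis), for 18 genes with lower means in positive cells (y axis), taken from the p53, BMP, FGF, matrix, fibroblast and largest-difference groups after their values were seen. All points lie below 0, and the pairs spread most for Acta2, from −0.44 to −1.58.

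**Figure D5:**
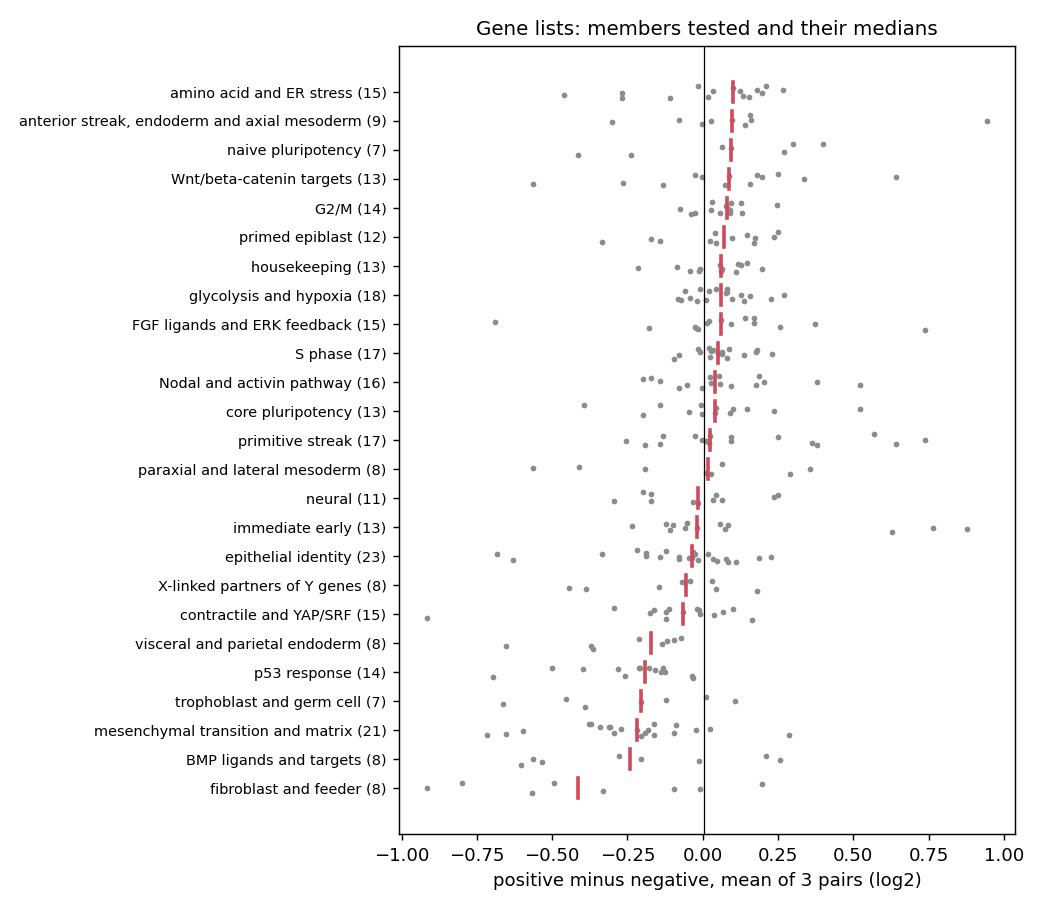
Mean pair difference on the log2 scale (x axis) of each tested member (grey points) of 25 gene lists with at least 7 tested members (y axis, number tested in brackets), with the list median in red and the median of all 11953 genes as a black line. Medians run from −0.41 for the fibroblast and feeder list to 0.10 for the amino acid and ER stress list.

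Pluripotency factors differed little. Pou5f1 was at 11.60, 12.08 and 11.70 on positive and at 11.63, 12.10 and 11.80 on negative arrays, and each pair lay within 0.10. Nanog was at 10.49, 10.69 and 10.53 against 10.60, 10.26 and 10.85, higher in pair 2 and lower in pairs 1 and 3, and its second passing probe differed by 0.32. Sox2, the partner of Pou5f1, differed by −0.20 ± 0.10 (adjusted p = 0.577). Of 13 core pluripotency genes 4 were higher and 3 lower in every pair. For this and the next lists, 15.9% of all genes were higher and 15.3% lower in every pair. Apart from Gdf3 and Dppa4 (−0.39 ± 0.10, adjusted p = 0.261, no overlap), the core genes tested lay within 0.24 of 0. Of 7 naive pluripotency genes tested, Dppa5a differed by −0.41 ± 0.10 and Esrrb by 0.30 ± 0.13, or by 0.12 without pair 3, while Klf4, Tbx3, Zfp42, Nr0b1 and Dppa3 did not pass the filter. Of 12 primed epiblast genes 2 were higher and 2 lower in every pair, with a median of 0.07. Of 11 neural genes 1 was higher, Sox3 by 0.25 ± 0.11, and 2 were lower. Of 8 paraxial and lateral mesoderm genes 2 were higher in every pair, Etv2, a factor of blood and vessel progenitors (0.36 ± 0.10), and Tcf15, a factor of paraxial mesoderm (0.29 ± 0.11), and 2 were lower, Ets1 (−0.41 ± 0.12) and Bmp4.

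Immediate early genes did not differ alike in the 3 pairs. Fos, an AP-1 subunit gene induced within minutes of a stimulus, was at 10.04, 8.03 and 8.11 on positive and at 9.04, 7.98 and 6.52 on negative arrays. The difference was 1.00 in pair 1, 0.04 in pair 2 and 1.59 in pair 3, with a mean of 0.88 ± 0.24 (adjusted p = 0.300). Without pair 2 it was 1.29 and passed the test (adjusted p = 0.0251). Fosb and Egr1 followed the same pairs, with 1.40, −0.08 and 0.98 for Fosb and 1.03, −0.02 and 0.88 for Egr1. Jun, Dusp1 and Zfp36 differed by −0.02, 0.08 and −0.06, and the median of the 13 tested genes was −0.02.

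Cell cycle, metabolic and reference genes stayed near 0. The medians were 0.08 for 14 G2/M genes, 0.05 for 17 S phase genes, 0.06 for 18 glycolysis and hypoxia genes and 0.06 for 13 housekeeping genes, and 0 genes of these lists were called. In the G2/M list Bub1b, a spindle checkpoint kinase gene, was higher without overlap (0.25 ± 0.10), though by 0.01 on its second probe, and Mki67 differed by −0.07. Among 15 amino acid and ER stress genes, Ddit3, a transcription factor gene of the stress response, was lower without overlap (−0.46 ± 0.10, adjusted p = 0.236) and Chac1, a glutathione-degrading enzyme gene, higher in every pair (0.27 ± 0.10).

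The largest differences outside the lists, apart from the called genes, began with Emp1. Emp1, an epithelial membrane protein gene, was at 5.31, 5.94 and 5.57 on positive and at 6.44, 7.38 and 6.36 on negative arrays. The groups did not overlap, and the difference of −1.12 ± 0.13 came close to the threshold (adjusted p = 0.0542). On the authors' deposited values it was −0.57 (adjusted p = 0.0196). Igf2, an imprinted growth factor gene, was at 9.96, 10.63 and 10.52 against 10.95, 11.58 and 11.09 (−0.84 ± 0.11, adjusted p = 0.0756), also without overlap. Pmp22, a membrane protein gene related to Emp1, differed by −0.97 ± 0.16, Tppp3, a tubulin-binding protein gene, by −0.85 ± 0.12, Myof, which encodes the membrane repair protein myoferlin, by −0.83 ± 0.12 and Sfn, the gene of an epithelial 14-3-3 protein, by −0.77 ± 0.12. Among genes with the same sign in every pair, an unadjusted p below 0.05 and detection on all arrays of 1 sort, unnamed gene models left out, the largest positive differences apart from those of Trh, Fos, Fgf8 and T were those of Pla2g1b, a secreted phospholipase gene (0.65 ± 0.16), Rbmxl2 (0.62 ± 0.16), Cgref1 (0.60 ± 0.11), the histone gene H3c8 (0.58 ± 0.11), Ctsc, a lysosomal protease gene (0.57 ± 0.20), the cytokine gene Il18 (0.53 ± 0.09), Inpp5j (0.53 ± 0.13) and Gxylt1 (0.53 ± 0.14). Inpp5j was detected on 3 positive and 0 negative arrays and was at least 1.255-fold higher. Il18 had nearly equal pair differences of 0.55, 0.51 and 0.54 (adjusted p = 0.137), and Ctsc rested on pair 3, with 0.12, 0.30 and 1.28, and its other passing probes differed by 0.20 and 0.54.

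The number of genes past the threshold depended on the processing. The same paired model called 60 genes on the authors' deposited values (8 higher and 52 lower), 48 without background correction (4 higher and 44 lower), 31 with median scaling (3 higher and 28 lower) and 122 with a mean-variance trend (24 higher and 98 lower). These 4 had the most calls of the 12 alternatives, and they used the same 6 arrays. The deposited values correlated at 0.9995 or more with uncorrected log2 signals on every array, so the 4 are not separate support. In these 4 alternatives together 19 genes were called every time, 1 higher and 18 lower. The higher gene was Trh. The lower genes were Tmem223, Prxl2a, Eif2s3y, Ddx3y, Emp1, Pmp22, Igf2, Tppp3, Bgn, Sfn, Tgfbi, Krt8 and Tfap2c, with Wls, Slc39a4, Hspb2, Gpx3 and Cited4, the last 5 named after their values were seen. Slc39a4, a zinc transporter gene, was at 6.04, 6.50 and 7.55 on positive and at 6.65, 7.27 and 8.29 on negative arrays (−0.71 ± 0.10, adjusted p = 0.0756). It too was highest in replicate 3 of both sorts. Gpx3, a secreted glutathione peroxidase gene, and Hspb2, a small heat shock protein gene, differed by −0.72 ± 0.11 and −0.74 ± 0.11, and Cited4, a transcriptional coactivator gene, by −0.71 ± 0.13. On the authors' deposited values Gpx3, Hspb2, Slc39a4 and Cited4 differed by −0.37, −0.39, −0.46 and −0.48, Wls by −0.37, Tppp3 by −0.48 and Tfap2c by −0.44.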

How the data were processed

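RNeasy-isolated total RNA of the sorted cells was labelled with biotin during TotalPrep amplification and read on Illumina bead arrays, per the labels' protocols. Intensity values were deposited on a linear scale without normalization, as a mean over beads beside a detection p-value for every probe on every array, per the file headers. The authors' deposited log2 values were made with lumi, per the submitters' processing notes; the sources used here give neither version nor method. In them the medians of the 6 arrays lay between 6.09 and 6.10.

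Signals of 45281 probes on the 6 sorted arrays were background-corrected by normexp from the detection p-values (offset 16), then quantile normalization and log2 followed (neqc, limma 3.58.1, R 4.3.3). A probe passed if its detection p-value was under 0.05 on 3 or more of the 6 arrays (17189 did), and the passing probe with the highest mean stood for its gene (11953 genes, some low ones near background). Symbols were updated through RefSeq's table (16219 current, 5726 updated, 8924 kept). Limma's lmFit and eBayes were fitted with replicate number as a block, two-sided, with Benjamini-Hochberg adjustment over all genes at 0.05; the code was tested on simulated data. Exact tests over 3 pairs cannot go below p = 0.25.

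Same-numbered arrays were paired because, taken as deviations from their sort's mean, they correlated at 0.58, 0.62 and 0.39 over genes. All differently numbered pairs were below 0. The deviations within a sort sum to 0, so those values follow in part from the positive ones and are not added support. The labels give the numbers only. A gene detected on 0 arrays of the dimmer sort has its fold as a lower bound, against the lowest detected signal or, if higher, its own on each dim array. Named genes are those called, the 12 largest differences each way among genes with the same sign in 3 of 3 pairs, an unadjusted p below 0.05 and detection on all arrays of 1 sort (unnamed gene models left out), 28 key genes, up to 6 members per list with the same sign in every pair, and other list members as values. The members, the 26 lists and these rules were chosen with earlier results of these data known.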

Additional observations from a re-analysis of the deposited data

How the results depend on the processing

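Without the replicate block 0 genes were called in either direction, and with no detection filter 0 (356 and 2213 genes at an unadjusted p below 0.05, by limma). Genes called higher and lower numbered 8 and 52 on the authors' deposited values, 4 and 44 without background correction, 3 and 28 with median scaling, 24 and 98 with a variance trend, and 1 and 7 among genes detected on all 6 arrays; the last filter left 20 of 119 named genes untested, Prxl2a and Eif2s3y among them. The cause was not tested. Leaving out each pair in turn gave 0 to 2 higher and 3 to 5 lower genes, and the 3 called genes remained called each time. Normalization over all 9 arrays, and the mean of probes, gave 0 higher and 3 lower genes as in the main setting. Of 119 named genes, 115 kept their direction under each of the 12 alternatives in which they were tested (99 under that filter, all 119 under the others). Most of the 119 had the same sign in every pair, largely by the rule of choice, so leaving out 1 pair could not reverse them. The fits without the block and with the trend give the same differences as the main fit. The count of 115 is therefore not separate support. The exceptions were near 0: Pou5f1 (0.0043 with median scaling), Nanog (0.042 with median scaling, 0.16 with the mean of probes, and −0.22 to 0.16 leaving out 1 pair), Uty (−0.013 with median scaling, −0.25 to 0.15 leaving out 1 pair) and Sox4 (0.10 with the mean of probes). Median scaling moved the median of all genes from 0.01 to 0.03. Differences of genes near background were smaller without background correction, for Gsc 0.20 and for Id3 −0.16, against 0.57 and −0.53 as reported.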
